A study of Capra hircus with 24 samples.

Results

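Dermal papilla cells taken from the secondary hair follicles of male cashmere goats in June were compared with dermal papilla cells taken from the primary hair follicles of male goats in the same month. The comparison uses 6 of the 24 RNA-seq libraries of a study of goat skin (Capra hircus), chosen by their labels for follicle type, sex and month. There were 3 libraries of secondary papilla cells and 3 of primary papilla cells, and the labels place both in early anagen, the stage in which a follicle begins to grow a new hair. The other 18 libraries cover June females and both sexes in October, labelled anagen, with 3 libraries for each follicle type; those of June females and October males serve below to ask whether the differences of June males were of the same size there. The labels give no treatment, age, body site or number of animals and do not say whether the cells were cultured. The 3 libraries of each group are numbered as bio reps, and whether these were separate goats is not said, so all p-values measure the spread between these libraries, which may be technical.

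A hair follicle is built by epithelial cells that divide at its base around a small cluster of mesenchymal cells, the dermal papilla. The papilla sends signals to this epithelium through Wnt agonists, fibroblast growth factors, BMPs and their secreted inhibitors, insulin-like growth factors and retinoic acid, and it is known for setting the size and the timing of the hair. In goats the secondary follicles make the fine cashmere fibre, which grows seasonally, and the primary follicles make the coarse guard hair.

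Each library gives 1 normalised value per protein-coding gene. The values are not counts, they sum to nearly the same total in every library, and no read depth can be recovered from them. Library totals ran from 959766 to 983239 in secondary cells and from 1031229 to 1033249 in primary cells, and 12404 to 12433 genes, against 12276 to 12313, had a value of at least 1. Across genes, which are not independent replicates, the profiles of libraries of the same group correlated with r of at least 0.996, and those of a secondary and a primary library with r of at most 0.962. The mitochondrial share of the total was 8.72% to 9.35% in secondary cells and 8.90% to 9.48% in primary cells.

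The label of papilla cells was checked against 31 papilla markers, 26 of which reached the level for testing. Versican (VCAN), the proteoglycan of the papilla matrix, had values of 258, 244 and 248 in secondary cells, against 253, 235 and 252 in primary cells. BMP4 (at 77.5, 86.1 and 86.7 in secondary cells, against 77.8, 72.5 and 78.8 in primary cells) and the Wnt agonist RSPO3 (at 176, 175 and 174 in secondary cells, against 241, 230.2 and 241 in primary cells) were likewise present in all 6 libraries. Alkaline phosphatase (ALPL), the enzyme most often stained to find papillae, was near 0 throughout, at 0.2, 0.11 and 0.08 in secondary cells, against 0.07, 0.16 and 0 in primary cells. CORIN and PROM1, also used to define papilla cells, lay between 0.07 and 0.46 in the 6 libraries, HHIP between 0 and 0.03, and RSPO4 was listed at 0 in all of them. The markers therefore match the label in part, with ALPL and CORIN near 0 in both groups. Listed markers of interfollicular fibroblasts, those of the dermis between follicles, were present too. Their summed level was 6204 to 6261 in secondary cells and 7705 to 7926 in primary cells. The part of such fibroblasts in the libraries was not tested. SRY, the male-determining gene, was listed at 0 in all 24 libraries, so the sex given in the labels could not be checked with it.

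Differences are given as log2 of the value plus 1, secondary minus primary, so that 1 is about a doubling of a well-expressed gene, and the size of the change is understated for genes with low values. A gene was called when its limma p-value, adjusted by Benjamini-Hochberg over the 13049 genes tested, was under 0.05; "rose" and "fell" are used of called genes and say what secondary cells did relative to primary cells. In every called gene whose 6 values are printed below, the 3 secondary libraries and the 3 primary libraries did not overlap. Most of these genes were picked for large called differences, which favours such gaps. The share of all tested genes without overlap is not given, so a gap is a description and no separate result. By this rule 7779 genes were called, 59.6% of those tested, with 4006 higher (30.7%) and 3773 lower (28.9%) in secondary cells. Of these, 959 (7.35% of the genes tested) differed at least 2-fold on this scale, 593 of them higher (4.54%) and 366 lower (2.80%). At least 4-fold differences were found for 93 genes higher and 70 lower in secondary cells. The balance of directions rests on the scale of the libraries: with every library set to a total of 1e+06, 5058 genes were called higher and 2817 lower, and the median difference of all genes was 0.09 against 0.0091 with the values as deposited. A share of called members in a gene group near these percentages is no result about the group. In bulk samples such as these, fewer cells of a type and less RNA per cell cannot be told apart in these values.

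The genes with the largest rise in secondary cells included a growth factor, a cytokine and a chemokine. EREG, an EGF-family growth factor, had values of 35.6, 27.1 and 27.5 in secondary cells, against 0.73, 0.46 and 0.35 in primary cells (log2 difference 4.36, SE 0.12, limma adjusted p 9.3e-19). The inflammatory cytokine IL6 stood at 81.2, 82.3 and 73.0 in secondary cells, against 6.42, 5.72 and 4.82 in primary cells (log2 difference 3.59, SE 0.15, limma adjusted p 3.3e-15). The neutrophil chemokine CXCL8 was at 176, 153 and 149 in secondary cells, against 10.4, 11.5 and 11.6 in primary cells (log2 difference 3.72, SE 0.12). No secondary library overlapped a primary one for any of these 3 genes, and the lowest secondary value of each was more than 10 times its highest primary value.

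Among peptides, TAC1, the precursor of substance P, was at 65.0, 58.8 and 56.3 in secondary cells, against 3.89, 2.81 and 3.61 in primary cells (log2 difference 3.79, SE 0.10). Secretin (SCT) was at 27.3, 21.2 and 22.6 in secondary cells, against 0.51, 1.60 and 0.47 in primary cells (log2 difference 3.77, SE 0.30). Somatostatin (SST) was at 13.8, 12.1 and 14.5 in secondary cells, against 0, 0 and 1.82 in primary cells (log2 difference 3.35). Somatostatin was thus listed at 0 in 2 of the 3 primary libraries and the third held all of the group's signal. Of the 16 tested neuropeptides and peptide hormones, 8 rose (50%) and 4 fell (25%), beside 30.7% and 28.9% of all genes tested. Their median difference was 0.46. With a value of 1 asked in 6 libraries, 10 of them were tested, with 6 higher and 3 lower. Stanniocalcin 2 (STC2) was at 41.4, 39.9 and 40.4 in secondary cells, against 5.92, 7.47 and 6.74 in primary cells (log2 difference 2.44, SE 0.066). Neuromedin U (NMU) was at 22.9, 21.5 and 21.8 in secondary cells, against 4.75, 2.97 and 3.46 in primary cells (log2 difference 2.30, SE 0.18). Adrenomedullin, a vasodilator peptide, is described with the hypoxia genes below.

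A pair of matrix metalloproteinases had large differences. MMP3 (stromelysin) was at 22.9, 19.7 and 21.2 in secondary cells, against 0.2, 0.19 and 0.14 in primary cells (log2 difference 4.24, SE 0.13, limma adjusted p 7.2e-18). MMP12 (the elastase first described in macrophages) was at 18.6, 18.8 and 17.4 in secondary cells, against 0.25, 0.24 and 0.14 in primary cells (log2 difference 3.99). Both lay below 0.3 in every primary library and above 17 in every secondary one. MMP12, SST, HOXC11 and PECAM1 in secondary cells and PITX1 and RORB in primary cells of June males reached 1 in fewer than 3 libraries outside that group, so each was tested because of the group where it was high, and its values are a description. CMKLR1, the receptor of the adipokine chemerin, was at 49.6, 54.9 and 58.5 in secondary cells, against 4.18, 3.40 and 3.15 in primary cells (log2 difference 3.60, SE 0.076). The scavenger receptor COLEC12 was at 22.7, 21.7 and 22.8 in secondary cells, against 0.91, 1.24 and 1.14 in primary cells (log2 difference 3.48, SE 0.062). LRRC15, a surface protein of activated fibroblasts, was at 62.5, 63.8 and 65.8 in secondary cells, against 5.19, 5.15 and 4.73 in primary cells (log2 difference 3.43, SE 0.049). Thrombomodulin (THBD), the cell-surface cofactor of thrombin, stood at 147, 149 and 149 in secondary cells, against 16.3, 14.5 and 15.8 in primary cells (log2 difference 3.18, SE 0.060). The membrane glycoprotein GPNMB was at 92.8, 95.6 and 93.5 in secondary cells, against 10.5, 9.07 and 8.68 in primary cells (log2 difference 3.19, SE 0.073). The proprotein convertase PCSK6 was at 25.7, 26.7 and 27.9 in secondary cells, against 2.77, 2.45 and 1.87 in primary cells (log2 difference 3.05, SE 0.10). In every one of these genes the 3 secondary libraries lay above the 3 primary ones.

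**Figure D1:**
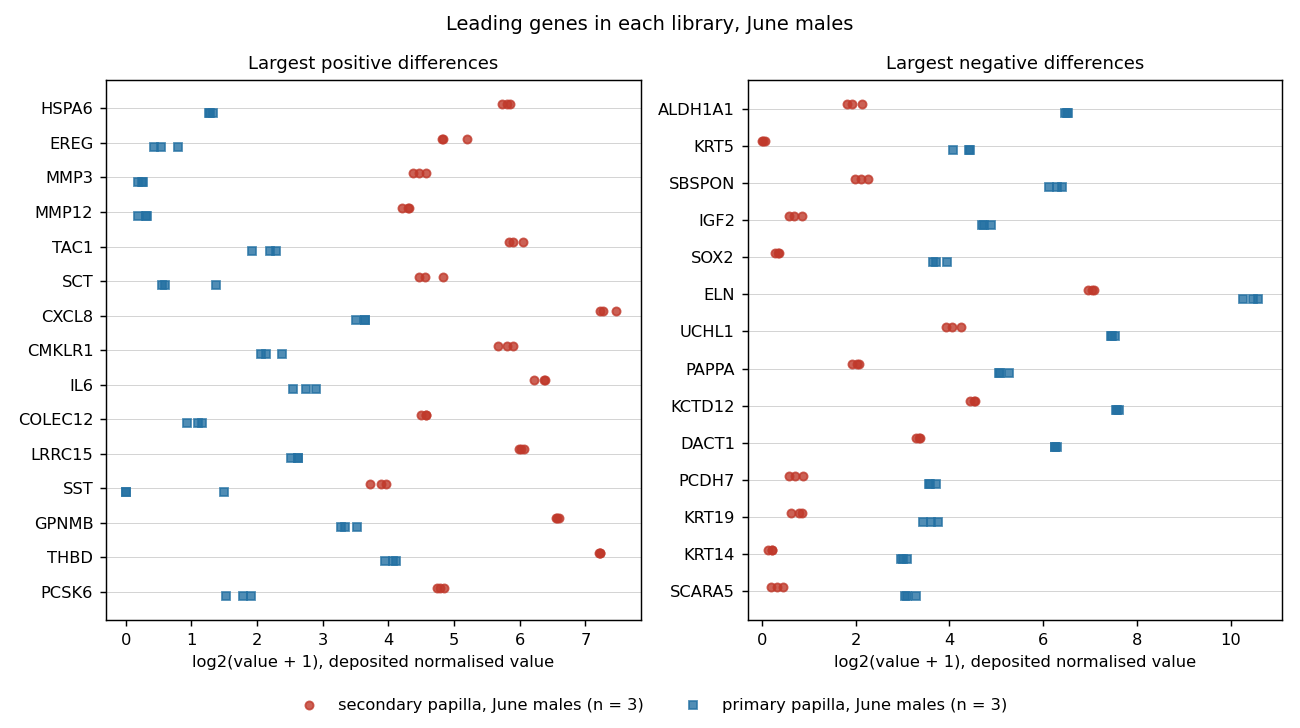
Values of genes with the largest differences in each of the 6 libraries of June males, as log2(value + 1) on the horizontal axis, with secondary libraries as circles and primary libraries as squares (n = 3 each). The groups are separate for every gene shown, and for SST 2 primary libraries lie at 0 while the third is at 1.82 on the unlogged scale.

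The genes with the largest fall in secondary cells included the retinoic acid enzyme ALDH1A1, which oxidises retinal to retinoic acid. It stood at 2.55, 3.38 and 2.78 in secondary cells, against 89.2, 87.5 and 90.7 in primary cells (log2 difference -4.53, SE 0.094, limma adjusted p 1.8e-20). The transcription factor SOX2, a marker that in mice distinguishes papillae of different hair types, was at 0.29, 0.22 and 0.27 in secondary cells, against 11.6, 14.5 and 12.1 in primary cells (log2 difference -3.44, SE 0.14, limma adjusted p 1.8e-15). IGF2, a fetal growth factor, was at 0.5, 0.6 and 0.82 in secondary cells, against 25.5, 28.6 and 24.8 in primary cells (log2 difference -4.06, SE 0.11). The protease PAPPA, which cleaves IGF-binding proteins, was at 3.08, 2.81 and 3.18 in secondary cells, against 37.3, 32.5 and 32.9 in primary cells (log2 difference -3.13, SE 0.089). Elastin (ELN), the core protein of elastic fibres, stood at 122, 134 and 130.1 in secondary cells, against 1405, 1516 and 1226 in primary cells (log2 difference -3.41, SE 0.084, limma adjusted p 2.2e-19).

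SBSPON, a secreted protein with somatomedin B and thrombospondin domains, was at 2.94, 3.33 and 3.79 in secondary cells, against 77.7, 84.0 and 68.2 in primary cells (log2 difference -4.16, SE 0.11). The deubiquitinase UCHL1 was at 17.9, 14.3 and 15.7 in secondary cells, against 172, 175 and 184 in primary cells (log2 difference -3.40, SE 0.076). The GABA-B receptor subunit KCTD12 was at 22.1, 22.3 and 20.6 in secondary cells, against 194, 189.6 and 187 in primary cells (log2 difference -3.08, SE 0.080). DACT1, an intracellular modulator of Wnt signalling, was at 9.36, 9.27 and 8.79 in secondary cells, against 77.7, 75.3 and 75.2 in primary cells (log2 difference -2.93, SE 0.050). The protocadherin PCDH7 was at 0.64, 0.83 and 0.49 in secondary cells, against 11.0, 10.9 and 12.1 in primary cells (log2 difference -2.90, SE 0.081). The ferritin receptor SCARA5 was at 0.25, 0.14 and 0.37 in secondary cells, against 7.27, 8.74 and 7.52 in primary cells (log2 difference -2.82, SE 0.094). The plot of the leading genes shows no overlap between groups for any of them. The keratins KRT5, KRT14 and KRT19 were also among the 15 lowest and are described with the epithelial markers below.

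Papilla markers differed in both directions, with more of them lower in secondary cells. Of the 26 tested, 14 fell (53.8%) and 7 rose (26.9%), beside 28.9% and 30.7% of all genes tested, and their median difference was -0.29. Besides SOX2, the Wnt agonist RSPO2 fell, at 8.80, 8.79 and 8.70 in secondary cells, against 49.5, 47.4 and 48.1 in primary cells (log2 difference -2.34, SE 0.061, limma adjusted p 5.3e-19). INHBA, which encodes the activin A subunit, was at 63.5, 62.8 and 70.2 in secondary cells, against 346, 308 and 339.9 in primary cells (log2 difference -2.32, SE 0.053, limma adjusted p 6.7e-20). ENPP2 (autotaxin), which makes lysophosphatidic acid, was at 76.0, 73.3 and 77.1 in secondary cells, against 312, 291 and 286 in primary cells (log2 difference -1.96, SE 0.044). FGF7, the keratinocyte growth factor, was at 17.3, 15.7 and 15.3 in secondary cells, against 55.6, 58.8 and 58.8 in primary cells (log2 difference -1.78, SE 0.087). The transcription factor FOXD1 was at 1.17, 0.9 and 1.15 in secondary cells, against 4.24, 4.21 and 4.72 in primary cells (log2 difference -1.38, SE 0.075). TBX18, a T-box factor of papilla precursors in mice, was at 29.0, 25.2 and 23.8 in secondary cells, against 49.5, 49.4 and 48.8 in primary cells (log2 difference -0.90, SE 0.071). In each of these 7 markers all 3 secondary libraries lay below all 3 primary ones.

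Smaller falls were called for the BMP inhibitor NOG (log2 difference -0.84, SE 0.14), the leptin receptor LEPR (log2 difference -0.77, SE 0.10), FGF10 (log2 difference -0.48, SE 0.084), RSPO3 (log2 difference -0.44, SE 0.040), ALX4 (log2 difference -0.40, SE 0.061) and TRPS1 (log2 difference -0.33, SE 0.076). LEF1, the transcription factor of Wnt targets, was called lower (log2 difference -0.26, SE 0.081, limma adjusted p 0.0081) and lost its call with a common total per library (limma adjusted p 0.0569) and without primary replicate 1 (limma adjusted p 0.0529), with a range of 0.00612 to 0.0569 over its alternatives. The markers that rose were led by the secreted Wnt inhibitor WIF1, at 9.73, 10.1 and 8.44 in secondary cells, against 2.30, 1.53 and 1.74 in primary cells (log2 difference 1.87, SE 0.13, limma adjusted p 1.5e-11). CRABP1, a cytoplasmic carrier of retinoic acid, was at 3.30, 3.16 and 6.36 in secondary cells, against 0.24, 0.59 and 0.79 in primary cells (log2 difference 1.74, SE 0.20). The Wnt agonist RSPO1 was at 10.8, 11.4 and 10.8 in secondary cells, against 5.43, 4.72 and 3.53 in primary cells (log2 difference 1.13, SE 0.10). HEY1, a Notch target (log2 difference 0.75, SE 0.16), the neurotrophic factor NDNF (log2 difference 0.61, SE 0.045) and SPON1 (log2 difference 0.27, SE 0.084) rose by less. VCAN, BMP4, ALPL and SFRP2 were not called, with log2 differences of 0.023, 0.13, 0.071 and -0.15. Neither was PTCH1 (SE 0.089). BMP4 was called higher when libraries were set to a common total (limma adjusted p 0.0202, range over its alternatives up to 0.431).

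**Figure D2:**
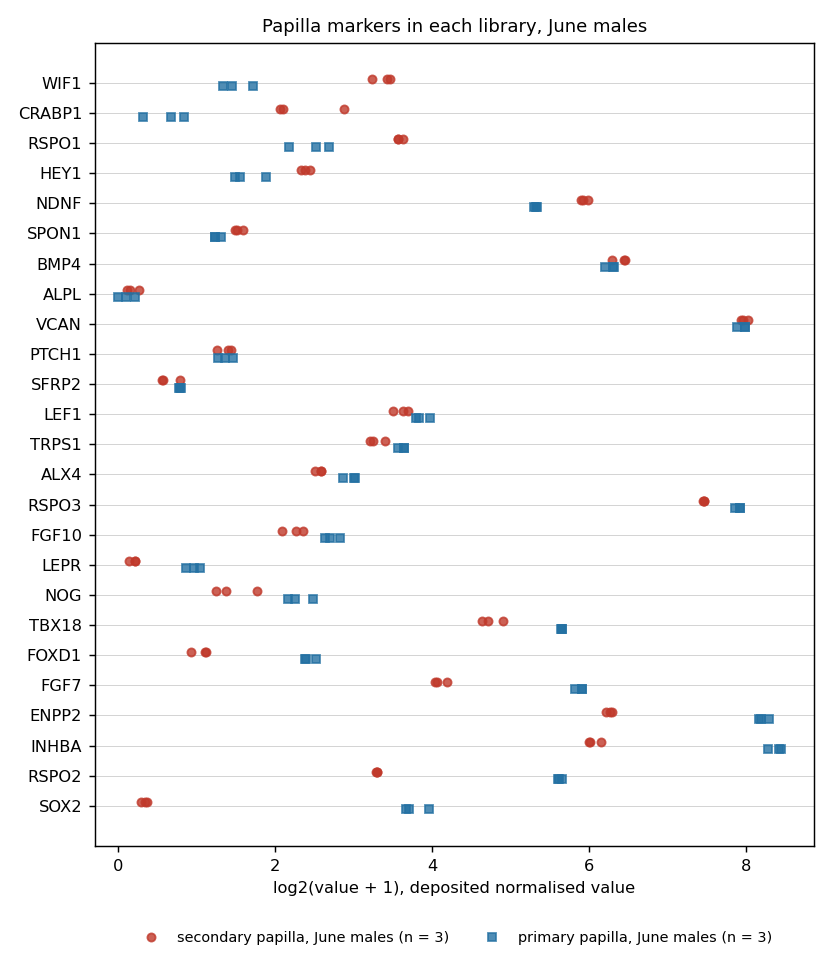
Tested papilla markers in each of the 6 libraries of June males, ordered from the largest rise (WIF1) to the largest fall (SOX2) in secondary cells. Circles are secondary and squares primary libraries (n = 3 each) on a log2(value + 1) axis; groups are separate at both ends of the order and mixed around VCAN and PTCH1.

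Retinoic acid pathway genes differed in both directions: of 17 tested members 8 rose (47.1%) and 7 fell (41.2%). Next to ALDH1A1, the retinaldehyde reductase DHRS3 fell, at 10.4, 11.1 and 10.3 in secondary cells, against 49.9, 54.9 and 53.5 in primary cells (log2 difference -2.21, SE 0.077). A second retinal-oxidising enzyme, ALDH1A3, rose instead, at 21.7, 21.6 and 19.5 in secondary cells, against 5.95, 5.92 and 6.38 in primary cells (log2 difference 1.63, SE 0.084). The retinol carrier RBP4 was at 138, 157 and 178 in secondary cells, against 59.0, 62.0 and 59.1 in primary cells (log2 difference 1.37, SE 0.081). With CRABP1 above, both binding proteins named here were higher in secondary cells. If the values are scaled to transcript length, which no source states, the level of ALDH1A3 was the higher of the pair in secondary cells and that of ALDH1A1 in primary cells.

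Wnt ligands, Frizzled receptors and their co-receptors had more falls than rises. Of 30 tested, 13 fell (43.3%) and 6 rose (20.0%), with a median of -0.13. WNT2 was at 0.33, 0.41 and 0.56 in secondary cells, against 2.15, 1.49 and 1.70 in primary cells (log2 difference -0.95, SE 0.10). WLS, the carrier that Wnt ligands need for secretion, was at 77.8, 79.9 and 75.7 in secondary cells, against 138, 138 and 144 in primary cells (log2 difference -0.84, SE 0.037). The receptor FZD5 was at 8.84, 9.27 and 8.70 in secondary cells, against 3.75, 3.65 and 3.85 in primary cells (log2 difference 1.06, SE 0.063), and FZD2 rose too (log2 difference 0.98, SE 0.12). Among 21 tested Wnt inhibitors and targets 7 fell (33.3%) and 6 rose (28.6%), close to the background. Secreted inhibitors went both ways. SFRP1 was at 9.13, 8.15 and 8.30 in secondary cells, against 32.5, 32.4 and 31.9 in primary cells (log2 difference -1.81, SE 0.057). DKK3, a member of the Dickkopf family, was at 54.2, 55.7 and 60.7 in secondary cells, against 136, 142 and 138 in primary cells (log2 difference -1.27, SE 0.045). SFRP4 was at 2.08, 3.20 and 3.42 in secondary cells, against 0.72, 0.55 and 1.24 in primary cells (log2 difference 1.09, SE 0.14), and thus rose with WIF1 while SFRP1 and DKK3 fell.

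In the BMP, activin and TGF-beta group, of 44 tested members 22 fell (50%) and 14 rose (31.8%), beside 28.9% and 30.7% of all genes tested. The ID genes, direct targets of BMP signalling that block bHLH transcription factors, went both ways. ID1 was at 308, 316 and 323 in secondary cells, against 81.3, 84.1 and 77.8 in primary cells (log2 difference 1.95, SE 0.062, limma adjusted p 2e-17). ID4 was at 24.7, 26.2 and 25.9 in secondary cells, against 110.5, 116 and 103 in primary cells (log2 difference -2.06, SE 0.065, limma adjusted p 1.5e-17). The TGF-beta binding protein LTBP1 was at 59.1, 58.8 and 59.6 in secondary cells, against 193, 187 and 184 in primary cells (log2 difference -1.65, SE 0.035). The pseudoreceptor BAMBI was at 3.18, 3.80 and 4.01 in secondary cells, against 12.5, 14.3 and 14.0 in primary cells (log2 difference -1.65, SE 0.090). The co-receptor TGFBR3 was at 67.0, 67.2 and 64.1 in secondary cells, against 20.2, 20.9 and 22.9 in primary cells (log2 difference 1.59, SE 0.061). Of the ligands INHBA fell, as above.

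For FGF and EGF ligands and receptors, of 23 tested, 8 rose and 8 fell (34.8% each). FGF2 was at 8.09, 8.28 and 7.81 in secondary cells, against 40.4, 39.6 and 36.7 in primary cells (log2 difference -2.14, SE 0.10), and thus fell together with FGF7 and FGF10. DUSP6, a phosphatase induced by and acting on ERK, was at 43.6, 44.8 and 45.0 in secondary cells, against 18.0, 18.9 and 20.4 in primary cells (log2 difference 1.18, SE 0.051). EGFR, the receptor of EREG, was at 5.99, 5.79 and 5.15 in secondary cells, against 9.31, 8.80 and 8.96 in primary cells (log2 difference -0.60, SE 0.068).

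The insulin-like growth factor axis was lower in secondary cells in most of its members. Of 19 tested members 16 fell (84.2%) and 3 rose, with a median of -0.73. After IGF2 and PAPPA, the RNA-binding protein IGF2BP2 was at 7.47, 7.11 and 6.63 in secondary cells, against 43.0, 42.3 and 45.3 in primary cells (log2 difference -2.47, SE 0.055). The binding protein IGFBP7 was at 519, 537 and 536 in secondary cells, against 1672, 1720.0 and 1689 in primary cells (log2 difference -1.67, SE 0.044). IGFBP3, the main carrier of these factors in blood, was at 22.0, 20.7 and 20.6 in secondary cells, against 59.4, 63.1 and 58.5 in primary cells (log2 difference -1.47, SE 0.064). No secondary library reached a primary one in these genes. STC2, which inhibits PAPPA, was among the 3 that rose.

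PDGF, VEGF and HGF axis members had 9 rises (40.9%) and 11 falls (50%) among 22 tested, beside 30.7% and 28.9% of all genes tested. Their median of -0.035 turned to 0.019 with a common total per library. GAS6, a ligand of the receptor AXL, was at 5.27, 5.94 and 5.58 in secondary cells, against 18.5, 19.1 and 18.1 in primary cells (log2 difference -1.57, SE 0.083). AXL itself was at 327, 349.7 and 338 in secondary cells, against 199, 201 and 200.2 in primary cells (log2 difference 0.75, SE 0.042). MET, the receptor of hepatocyte growth factor, was at 27.0, 24.8 and 25.1 in secondary cells, against 10.8, 10.8 and 11.3 in primary cells (log2 difference 1.15, SE 0.071). KITLG, the ligand of the melanocyte receptor KIT, was at 8.47, 7.43 and 6.39 in secondary cells, against 3.45, 3.63 and 3.62 in primary cells (log2 difference 0.88, SE 0.089). In the Notch and Hedgehog group 12 of 23 rose (52.2%) and 4 fell (17.4%), or 2 without secondary replicate 1. The Notch target HES4 was at 4.20, 4.61 and 4.05 in secondary cells, against 0.85, 0.72 and 1.15 in primary cells (log2 difference 1.48, SE 0.10). The Hedgehog transcription factor GLI2 was at 9.38, 9.88 and 10.2 in secondary cells, against 4.54, 5.01 and 4.89 in primary cells (log2 difference 0.89, SE 0.067).

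Dermal transcription factors had 18 rises (46.2%) and 17 falls (43.6%) among 39 tested, beside 30.7% and 28.9% of all genes tested. Their median of 0.004 changed sign under median-of-ratios factors and without either secondary replicate 3 or primary replicate 2. MSX1, a homeobox target of BMP signals, was at 27.5, 30.1 and 28.8 in secondary cells, against 7.64, 8.94 and 7.67 in primary cells (log2 difference 1.72, SE 0.10). FOXF1 was at 3.99, 3.21 and 3.49 in secondary cells, against 0.52, 0.53 and 0.22 in primary cells (log2 difference 1.69, SE 0.12). TWIST2, a bHLH factor of the dermal lineage, was at 40.1, 40.0 and 39.2 in secondary cells, against 13.1, 11.4 and 12.0 in primary cells (log2 difference 1.63, SE 0.057), so that these 3 were higher in every secondary library. PITX1, a hindlimb identity factor in mice, was at 0, 0.01 and 0.05 in secondary cells, against 3.29, 3.31 and 2.69 in primary cells (log2 difference -2.002). EBF1 was at 6.58, 7.85 and 6.97 in secondary cells, against 19.1, 18.1 and 22.8 in primary cells (log2 difference -1.36, SE 0.10). HOX genes, which keep a record of body position in dermal fibroblasts, had 9 rises (40.9%) and 6 falls (27.3%) among 22 tested. HOXC11 was at 1.37, 1.33 and 1.27 in secondary cells, against 0.04, 0.08 and 0.16 in primary cells (log2 difference 1.09). HOXC8 was at 77.0, 76.5 and 77.2 in secondary cells, against 119, 119 and 117 in primary cells (log2 difference -0.61, SE 0.039). HOXB6 was at 1.2, 1.18 and 0.96 in secondary cells, against 2.87, 2.51 and 2.57 in primary cells (log2 difference -0.79, SE 0.077). The labels do not give the body site, and its part in these differences was not tested.

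Genes of mitosis were higher in secondary cells without exception among those tested. All 58 tested genes of mitosis and the G2/M phase rose, 55 of them at least 2-fold, with a median of 1.63. CDC20, the activator of the anaphase-promoting complex, was at 48.1, 52.5 and 55.3 in secondary cells, against 8.45, 8.35 and 8.34 in primary cells (log2 difference 2.496, SE 0.064, limma adjusted p 4.1e-19). The ubiquitin-conjugating enzyme UBE2C was at 76.3, 80.0 and 74.4 in secondary cells, against 14.6, 14.2 and 11.7 in primary cells (log2 difference 2.43, SE 0.094, limma adjusted p 6.4e-16). The kinesin KIF2C was at 17.1, 17.0 and 16.3 in secondary cells, against 3.03, 3.19 and 2.26 in primary cells (log2 difference 2.23, SE 0.089). The kinase AURKB was at 10.6, 11.6 and 11.5 in secondary cells, against 1.42, 2.26 and 1.42 in primary cells (log2 difference 2.19, SE 0.11). None of these had a secondary library near the primary range. The spindle protein PRC1 was at 48.0, 48.2 and 49.6 in secondary cells, against 9.34, 10.8 and 10.2 in primary cells (log2 difference 2.16, SE 0.058). CDCA3, which helps to trigger mitotic entry, was at 20.9, 22.3 and 25.3 in secondary cells, against 3.42, 4.76 and 5.14 in primary cells (log2 difference 2.14, SE 0.11).

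Of 61 tested genes of DNA replication and the G1/S transition, 57 rose (93.4%), 29 of them at least 2-fold, and 3 fell. UHRF1, which keeps DNA methylation at the replication fork, was at 16.3, 17.1 and 16.5 in secondary cells, against 3.43, 3.44 and 3.49 in primary cells (log2 difference 1.99, SE 0.070, limma adjusted p 1.2e-16). Thymidine kinase TK1 was at 38.2, 43.4 and 44.2 in secondary cells, against 11.1, 11.8 and 10.6 in primary cells (log2 difference 1.81, SE 0.094). The helicase subunit MCM5 was at 30.1, 32.1 and 37.0 in secondary cells, against 8.57, 9.56 and 8.28 in primary cells (log2 difference 1.80, SE 0.10). The transcription factor E2F1 was at 13.9, 15.0 and 15.4 in secondary cells, against 3.10, 3.72 and 4.75 in primary cells (log2 difference 1.71, SE 0.11). Cyclin D2 (CCND2), which was picked after its values were seen, fell, at 70.2, 71.0 and 71.0 in secondary cells, against 209, 199.9 and 206 in primary cells (log2 difference -1.52, SE 0.038).

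Inhibitors of the cell cycle and p53 targets were lower in secondary cells more often than higher, with 18 of 34 falling (52.9%) and 7 rising (20.6%). CDKN1C (p57) was at 6.98, 7.26 and 7.39 in secondary cells, against 19.1, 18.1 and 17.3 in primary cells (log2 difference -1.22, SE 0.10). The stress sensor SESN2 was at 21.3, 20.9 and 22.1 in secondary cells, against 59.5, 62.5 and 57.9 in primary cells (log2 difference -1.44, SE 0.066). The ribonucleotide reductase subunit RRM2B was at 9.11, 7.92 and 6.93 in secondary cells, against 17.0, 17.4 and 16.8 in primary cells (log2 difference -1.01, SE 0.10). LMNB1, a nuclear lamin lost from senescent cells, was at 27.2, 28.1 and 26.8 in secondary cells, against 8.21, 8.45 and 9.29 in primary cells (log2 difference 1.56, SE 0.059). The same mitotic and replication genes had medians of 1.48 and 0.72 in June females and of 0.27 and 0.018 in October males. The difference between June and October males was itself called, with June more positive, in 58 of 58 mitotic and 54 of 61 replication genes, beside 22.3% of all genes.

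**Figure D3:**
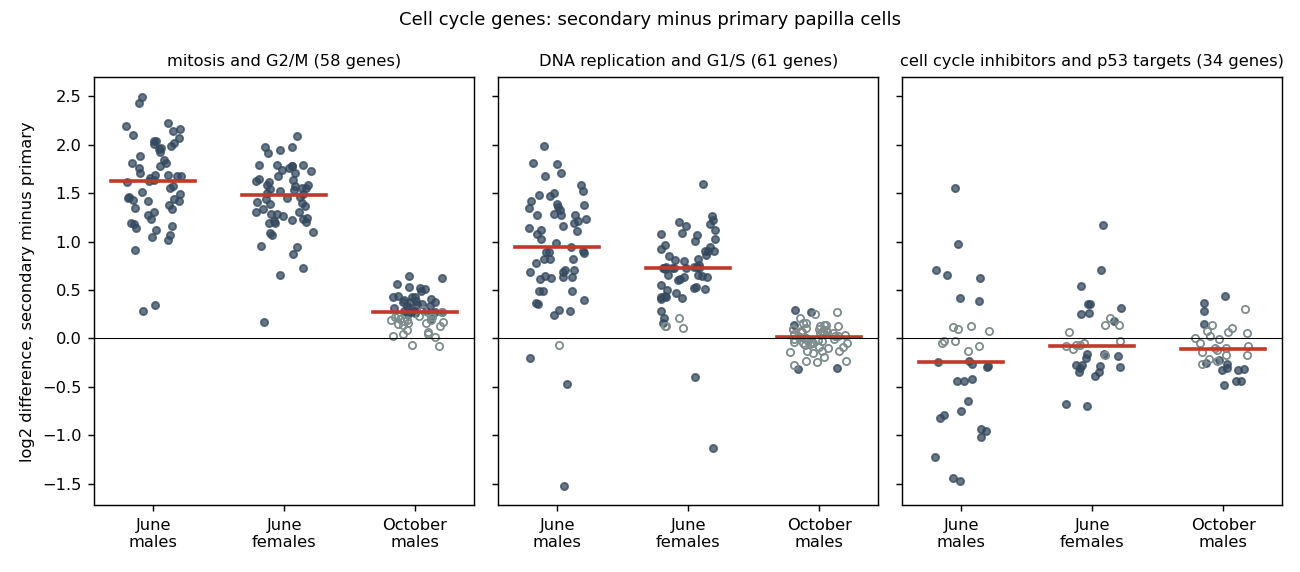
Log2 differences, secondary minus primary, of the tested genes of 3 cell cycle lists in June males, June females and October males. Each point is a gene, filled where called, and the red bar is the median; the mitotic genes have medians of 1.63, 1.48 and 0.27, and the inhibitors and p53 targets -0.24, -0.08 and -0.11.

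Collagens, the fibrils and networks of the extracellular matrix, differed in both directions. Of 24 tested collagens 13 fell (54.2%) and 9 rose (37.5%). Fibril-forming COL11A1 was at 532, 538 and 524 in secondary cells, against 1577, 1540.0 and 1521 in primary cells (log2 difference -1.54, SE 0.043). COL3A1, the main chain of type III fibrils, was at 1844, 1878 and 1902 in secondary cells, against 4968, 5000.0 and 4797 in primary cells (log2 difference -1.39, SE 0.033). COL5A2, which nucleates fibrils, was at 477, 494 and 471 in secondary cells, against 1017, 1018 and 992 in primary cells (log2 difference -1.07, SE 0.033). These abundant chains were lower in all secondary libraries, whereas other, less abundant chains were higher. COL5A3 was at 30.3, 32.3 and 30.9 in secondary cells, against 12.0, 13.0 and 12.7 in primary cells (log2 difference 1.24, SE 0.057). COL27A1 was at 8.96, 9.01 and 8.92 in secondary cells, against 4.22, 3.29 and 3.67 in primary cells (log2 difference 1.08, SE 0.075). COL8A2, a network-forming collagen, was at 4.42, 5.34 and 4.77 in secondary cells, against 11.0, 12.6 and 10.8 in primary cells (log2 difference -1.09, SE 0.076).

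Of 47 matrix glycoproteins, proteoglycans and lysyl oxidases, 23 fell (48.9%) and 15 rose (31.9%). Besides elastin, the fibulin EFEMP1 was at 79.2, 79.9 and 84.4 in secondary cells, against 460.1, 454 and 459 in primary cells (log2 difference -2.48, SE 0.042, limma adjusted p 4.2e-22). The laminin chain LAMA2 was at 1.91, 2.09 and 2.02 in secondary cells, against 15.9, 15.8 and 16.1 in primary cells (log2 difference -2.49, SE 0.057). Each was several times lower in every secondary library. Members of the small leucine-rich proteoglycans, which bind collagen fibrils, went both ways. Lumican (LUM) was at 926, 851 and 815 in secondary cells, against 157, 149 and 143 in primary cells (log2 difference 2.52, SE 0.062, limma adjusted p 2.2e-19). Decorin (DCN) was at 963, 950.4 and 907 in secondary cells, against 180.1, 180.0 and 177 in primary cells (log2 difference 2.39, SE 0.043, limma adjusted p 1.2e-21). Osteoglycin (OGN), of the same family and picked after its values were seen, fell, at 50.5, 51.8 and 39.0 in secondary cells, against 127, 122 and 119.7 in primary cells (log2 difference -1.38, SE 0.12). LUM and DCN were several times higher in every secondary library. Dermatopontin (DPT), which binds decorin, was at 153, 151 and 154 in secondary cells, against 33.9, 31.3 and 27.1 in primary cells (log2 difference 2.28, SE 0.078). LUM, DCN and DPT also stand in the list of interfollicular fibroblast markers, 9 of whose 15 tested members rose and 6 fell, and SCARA5 and COL3A1 of that list were among those that fell.

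Matrix proteases and their inhibitors had 19 rises (47.5%) and 13 falls (32.5%) among 40 tested. Of the 40, 7 rose at least 2-fold and none fell that far, beside 4.54% and 2.80% of all genes tested. With so small a share of falls over all genes, their lack is no result about the group. Next to MMP3, the metalloproteinase ADAM8 was at 31.4, 33.5 and 37.9 in secondary cells, against 6.41, 7.32 and 8.46 in primary cells (log2 difference 2.07, SE 0.10). The serpin SERPINE2 was at 51.0, 52.5 and 51.9 in secondary cells, against 15.8, 17.6 and 18.5 in primary cells (log2 difference 1.53, SE 0.093). The urokinase receptor PLAUR was at 75.2, 76.8 and 78.0 in secondary cells, against 31.2, 30.7 and 32.5 in primary cells (log2 difference 1.26, SE 0.050). MMP19 (log2 difference 1.21, SE 0.041) and ADAMTS5 (log2 difference 1.22, SE 0.10) rose too.

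Contractile genes, which mark the smooth-muscle-like cells of the dermal sheath around the follicle, were lower in secondary cells. Of 22 tested 16 fell (72.7%) and 2 rose, with a median of -0.74. Desmin (DES) was at 4.66, 5.18 and 5.24 in secondary cells, against 37.0, 39.3 and 39.0 in primary cells (log2 difference -2.71, SE 0.075, limma adjusted p 1.6e-18). The actin ACTG2 was at 429, 456 and 487 in secondary cells, against 2593, 2446 and 2462 in primary cells (log2 difference -2.45, SE 0.058, limma adjusted p 9.9e-20). The myosin light chain kinase MYLK was at 215, 205 and 195 in secondary cells, against 892, 822 and 839.7 in primary cells (log2 difference -2.05, SE 0.056). Calponin (CNN1) was at 284, 307 and 329 in secondary cells, against 726, 746 and 698 in primary cells (log2 difference -1.24, SE 0.084). SYNPO2, which binds actin bundles, rose instead, at 90.6, 91.6 and 95.4 in secondary cells, against 22.6, 20.5 and 23.2 in primary cells (log2 difference 2.02, SE 0.051), as did smoothelin, SMTN (log2 difference 0.95, SE 0.089). The 5 tested markers of vascular pericytes had 2 rises and 3 falls (1 fall with a common total per library), with CSPG4 (log2 difference 0.45, SE 0.076) and CD248 (log2 difference 0.48, SE 0.11) higher and MCAM (log2 difference -1.01, SE 0.11) lower. RGS5, the most specific of that list, lay between 0.16 and 0.40 in the 6 libraries, and the summed level of the list was 440.9 to 507.4 in secondary cells and 381.1 to 420.0 in primary cells. Its part in the contractile genes was not tested.

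**Figure D4:**
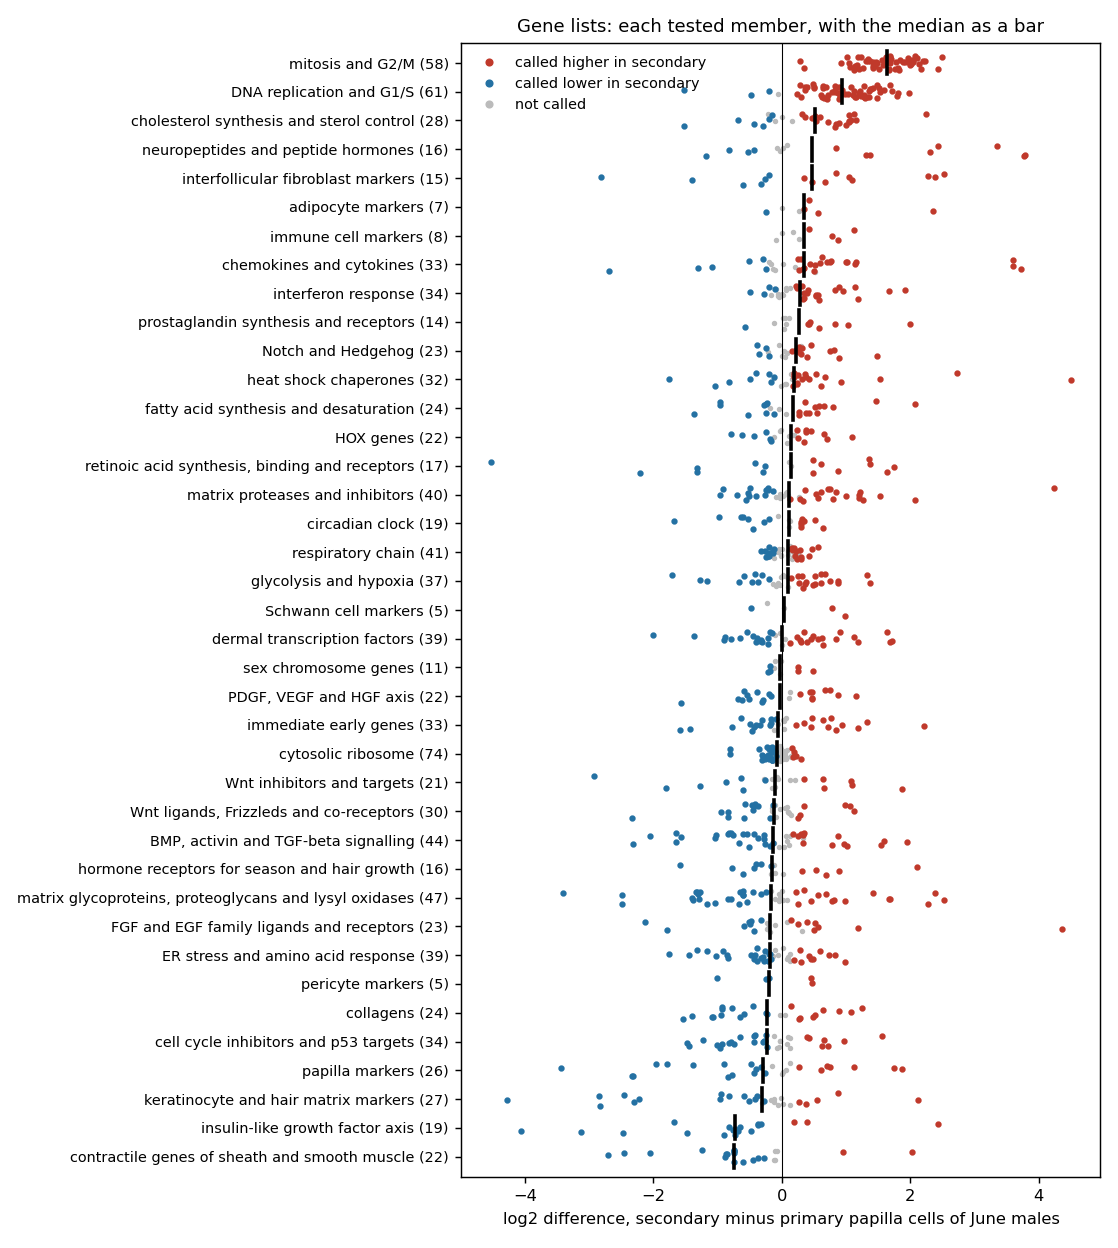
Log2 differences of every tested member of 39 gene lists in June males, secondary minus primary, with lists ordered by their median (black bar) and the number of tested members in parentheses. Red points were called higher and blue points lower in secondary cells; mitosis lies at the top with a median of 1.63 and contractile genes at the bottom with -0.74.

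Chemokines and cytokines rose in 20 of 33 tested members (60.6%) and fell in 6. CXCL8, CMKLR1 and IL6 led the group, and SOCS3 (the feedback inhibitor induced by IL6) was at 13.2, 12.0 and 13.4 in secondary cells, against 5.06, 5.55 and 5.07 in primary cells (log2 difference 1.16, SE 0.094). IL33, an alarmin held in the nucleus, was at 0.64, 0.52 and 0.4 in secondary cells, against 8.45, 8.84 and 9.22 in primary cells (log2 difference -2.70, SE 0.14). CCL26 was at 1.5, 0.99 and 2.28 in secondary cells, against 4.5, 5.86 and 5.61 in primary cells (log2 difference -1.31, SE 0.29). IL33 and CCL26 thus stood against the direction of most of the group. Immune cells can carry such genes, and their defining markers PTPRC, C1QA and C1QB were listed at 0 in all 6 libraries. Of the 8 tested immune markers 4 rose (50%) and none fell, beside 30.7% and 28.9% of all genes tested. CD68, a lysosomal protein, was at 18.9, 22.1 and 24.8 in secondary cells, against 10.7, 7.84 and 9.95 in primary cells (log2 difference 1.13, SE 0.11). CD14 (log2 difference 0.88, SE 0.073), LAPTM5 (log2 difference 0.78, SE 0.093) and CSF1R (log2 difference 0.42, SE 0.10) rose by less. The summed level of the list was 41.0 to 46.3 in secondary cells and 20.2 to 24.2 in primary cells, and its part in the cytokine genes was not tested.

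Interferon response genes rose in 19 of 34 (55.9%) and fell in 4, or in 2 without secondary replicate 2 or without primary replicate 3. ISG15, the ubiquitin-like protein of this response, was at 73.2, 60.2 and 69.1 in secondary cells, against 16.1, 19.4 and 15.8 in primary cells (log2 difference 1.92, SE 0.15, limma adjusted p 1.3e-10). IFI44 was at 6.42, 5.63 and 5.37 in secondary cells, against 1.21, 1.09 and 1.12 in primary cells (log2 difference 1.67, SE 0.15). The antiviral radical SAM enzyme RSAD2 was at 2.36, 2.41 and 1.94 in secondary cells, against 0.46, 0.41 and 0.38 in primary cells (log2 difference 1.19, SE 0.083). Prostaglandin genes rose in 7 of 14 (50%) and fell in 1 (7.14%), beside 30.7% and 28.9% of all genes tested. Cyclooxygenase 1 (PTGS1) was at 3.70, 3.98 and 4.17 in secondary cells, against 0.23, 0.19 and 0.3 in primary cells (log2 difference 1.997, SE 0.11). The prostaglandin E synthase PTGES was at 164, 172 and 166 in secondary cells, against 78.0, 82.8 and 83.2 in primary cells (log2 difference 1.03, SE 0.052). The inducible cyclooxygenase PTGS2, picked after its values were seen, was not called (log2 difference -0.12, SE 0.060).

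Heat shock chaperones rose in 18 of 32 (56.2%) and fell in 8. HSPA6, an HSP70 gene that is nearly silent without stress in humans, had the largest rise of any gene named here, at 52.2, 56.7 and 55.2 in secondary cells, against 1.43, 1.51 and 1.41 in primary cells (log2 difference 4.51, SE 0.10, limma adjusted p 6.7e-20). The small heat shock protein CRYAB was at 489.8, 512 and 527 in secondary cells, against 85.0, 76.4 and 67.7 in primary cells (log2 difference 2.73, SE 0.084, limma adjusted p 1.2e-17). The co-chaperone DNAJA4 was at 60.3, 64.4 and 60.4 in secondary cells, against 20.6, 21.4 and 20.4 in primary cells (log2 difference 1.52, SE 0.078). HSPB6, a small heat shock protein of muscle, was at 106, 119 and 138 in secondary cells, against 419, 408 and 395 in primary cells (log2 difference -1.75, SE 0.077), the reverse order of the other 3. HSPA6 has close relatives in the HSP70 family, so its value depends on how reads shared among them were divided.

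Genes of endoplasmic reticulum stress and amino acid supply differed in both directions. Of 39 tested, 21 fell (53.8%) and 10 rose (25.6%). CHAC1, SESN2, ATF5 and TRIB3, which fell, are known targets of the transcription factor ATF4. CHAC1 was at 5.6, 7.16 and 7.31 in secondary cells, against 26.0, 25.4 and 22.8 in primary cells (log2 difference -1.75, SE 0.087). ATF5 was at 175, 188 and 193 in secondary cells, against 481, 450.1 and 453 in primary cells (log2 difference -1.31, SE 0.053). The log2 difference of TRIB3 was -1.02 (SE 0.087), and SESN2 is given above. The chaperone of the reticulum HSP90B1 was at 1331, 1319 and 1285 in secondary cells, against 654, 637 and 704 in primary cells (log2 difference 0.98, SE 0.046).

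Immediate early genes, the first to be transcribed when a cell is stimulated or handled, had 12 rises (36.4%) and 14 falls (42.4%) among 33. The shares of all genes tested were 30.7% and 28.9%. The group's median of -0.059 was 0.026 with a common total. FOSL1 was at 73.1, 77.2 and 76.6 in secondary cells, against 14.8, 15.2 and 16.4 in primary cells (log2 difference 2.22, SE 0.057). FOS was at 80.6, 82.8 and 81.9 in secondary cells, against 242, 256 and 246 in primary cells (log2 difference -1.59, SE 0.042). FOSB was at 13.8, 14.1 and 15.6 in secondary cells, against 38.7, 39.8 and 43.9 in primary cells (log2 difference -1.43, SE 0.059). FOSL1 was higher and the other pair lower in all secondary libraries.

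Cholesterol synthesis genes were higher in secondary cells. Of 28 tested 18 rose (64.3%), 8 of them at least 2-fold, and 6 fell, with a median of 0.52. INSIG1, the sterol sensor that restrains the pathway, was at 47.1, 49.5 and 45.7 in secondary cells, against 8.10, 8.84 and 10.9 in primary cells (log2 difference 2.24, SE 0.10, limma adjusted p 6.3e-15). The enzyme MSMO1 was at 89.4, 85.3 and 69.5 in secondary cells, against 35.0, 37.5 and 34.8 in primary cells (log2 difference 1.16, SE 0.092). The enzyme LSS, which closes the sterol rings, was at 12.0, 12.5 and 12.7 in secondary cells, against 4.75, 5.90 and 4.86 in primary cells (log2 difference 1.12, SE 0.076). The secondary libraries were higher in each. TM7SF2, a sterol reductase, was at 2.60, 2.61 and 2.55 in secondary cells, against 9.55, 9.05 and 9.36 in primary cells (log2 difference -1.52, SE 0.082) and was lower. Of 24 fatty acid genes 12 rose (50%) and 9 fell (37.5%), beside 30.7% and 28.9% of all genes tested. The desaturase SCD was at 31.4, 27.9 and 28.2 in secondary cells, against 10.7, 9.22 and 10.1 in primary cells (log2 difference 1.46, SE 0.067). The fatty acid carrier FABP5 was at 9.62, 9.25 and 8.71 in secondary cells, against 1.65, 1.22 and 1.44 in primary cells (log2 difference 2.07, SE 0.10).

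Glycolysis and hypoxia genes had 18 rises (48.6%) and 10 falls (27.0%) among 37. Adrenomedullin (ADM) was at 1982, 1960.0 and 2006 in secondary cells, against 732, 771 and 801 in primary cells (log2 difference 1.37, SE 0.047). The carbonic anhydrase CA12 was at 41.7, 40.1 and 41.2 in secondary cells, against 14.6, 16.3 and 16.5 in primary cells (log2 difference 1.32, SE 0.054). Both were higher in every secondary library, whereas SLC2A3 and PDK4 of the same list were lower. The glucose transporter SLC2A3 was at 54.6, 56.3 and 47.5 in secondary cells, against 167, 176 and 178 in primary cells (log2 difference -1.70, SE 0.090). PDK4, which limits entry of pyruvate into the citrate cycle, was at 2.81, 3.03 and 3.00 in secondary cells, against 7.85, 7.92 and 10.0 in primary cells (log2 difference -1.28, SE 0.14). Respiratory chain genes had 13 rises (31.7%) and 10 falls (24.4%) among 41, beside 30.7% and 28.9% of all genes tested. None differed 2-fold or more, beside 7.35% of all genes tested. The 74 ribosomal protein genes had 5 rises and 25 falls, but their direction rests on scale: with a common total per library there were 15 rises and 11 falls, and without secondary replicate 1 or without secondary replicate 2 there were 16 falls.

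Among hormone receptors and related enzymes, 5 of 16 rose (31.25%) and 7 fell (43.75%), beside 30.7% and 28.9% of all genes tested. HSD11B1, which regenerates active glucocorticoid inside cells, was at 11.2, 9.44 and 11.0 in secondary cells, against 1.71, 1.59 and 1.78 in primary cells (log2 difference 2.10, SE 0.10). The vitamin D receptor VDR was at 10.4, 11.6 and 12.2 in secondary cells, against 36.0, 37.4 and 35.6 in primary cells (log2 difference -1.59, SE 0.060). Of 19 circadian clock genes 7 rose (36.8%) and 8 fell (42.1%), beside the same background. RORB, an orphan nuclear receptor, was at 0.02, 0.01 and 0 in secondary cells, against 2.59, 2.12 and 1.99 in primary cells (log2 difference -1.67). NR1D1, a repressor in the core clock, was at 24.3, 26.4 and 27.5 in secondary cells, against 16.5, 16.7 and 15.9 in primary cells (log2 difference 0.64, SE 0.074).

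Epithelial markers differed in both directions, with more of them lower in secondary cells. KRT5, the keratin of basal keratinocytes, was at 0, 0.05 and 0.02 in secondary cells, against 15.9, 20.3 and 20.6 in primary cells (log2 difference -4.27, SE 0.089, limma adjusted p 1.8e-20). KRT14, its partner, was at 0.17, 0.17 and 0.09 in secondary cells, against 7.00, 6.78 and 7.55 in primary cells (log2 difference -2.83, SE 0.10). KRT19 was at 0.54, 0.8 and 0.74 in secondary cells, against 9.81, 11.3 and 12.5 in primary cells (log2 difference -2.84, SE 0.13). Of 27 tested keratinocyte and hair matrix markers, 14 fell (51.9%) and 5 rose (18.5%), beside 28.9% and 30.7% of all genes tested. The 5 that rose are named after their values were seen. The integrin chain ITGA6 was at 10.6, 10.9 and 9.79 in secondary cells, against 1.88, 1.19 and 1.85 in primary cells (log2 difference 2.12, SE 0.11). PERP (log2 difference 0.88, SE 0.14), the claudin CLDN4 (log2 difference 0.54, SE 0.13), KRT10 (log2 difference 0.38, SE 0.12) and P-cadherin (CDH3) (log2 difference 0.26, SE 0.058) rose by less, and CDH3 was at 31.4, 33.3 and 33.1 in secondary cells, against 26.7, 27.8 and 26.4 in primary cells. The summed level of the list was 85.0 to 88.1 in secondary cells and 123.6 to 138.6 in primary cells, and KRT1, KRT25, KRT27 and KRT35 were at 0 in all 6 libraries. The part of epithelial cells in the other differences was not tested.

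Among markers of other cells, some defining genes were near 0 and other members were not, and their part in the other differences was not tested. CDH5, TIE1 and ROBO4 of endothelium were at 0 to 0.01, and the adhesion protein PECAM1 was at 2.07, 1.84 and 2.08 in secondary cells, against 0.31, 0.14 and 0.12 in primary cells (log2 difference 1.33). The transcription factor ERG rose, at 35.8, 34.4 and 34.3 in secondary cells, against 22.5, 23.4 and 21.6 in primary cells (log2 difference 0.61, SE 0.055). EGFL7, a secreted protein of endothelium, was at 34.7, 37.5 and 41.5 in secondary cells, against 19.6, 20.9 and 20.4 in primary cells (log2 difference 0.87, SE 0.10). ERG and EGFL7 made up most of the summed level of the list, which was 73.5 to 78.7 in secondary cells, against 43.2 to 45.1 in primary cells. The melanocyte genes TYR, DCT and MLANA did not exceed 0.11 in the 6 libraries, and PMEL was at 4.62, 4.61 and 4.10 in secondary cells, against 2.36, 2.23 and 2.16 in primary cells (log2 difference 0.74, SE 0.084), with 2 of the 3 tested melanocyte markers higher and none lower. That list summed to 17.3 to 18.7 in secondary cells and 14.4 to 15.3 in primary cells. CDH19 of Schwann cells was at 0 in all 6, with S100B at 56.2, 55.7 and 57.3 in secondary cells, against 29.2, 25.8 and 29.8 in primary cells (log2 difference 0.98, SE 0.057), and of 5 tested Schwann cell markers 2 rose and 1 fell. The one that fell was the myelin protein PMP22, at 132, 135 and 128 in secondary cells, against 188, 182 and 186 in primary cells (log2 difference -0.49, SE 0.044). The list's sum was 211.7 to 217.2 in secondary cells and 227.1 to 236.3 in primary cells. ADIPOQ of adipocytes lay between 0.39 and 1.15, and CIDEC, a lipid droplet protein, was at 8.68, 11.8 and 11.5 in secondary cells, against 1.17, 0.93 and 1.77 in primary cells (log2 difference 2.35, SE 0.14). Its relative CIDEA was at 20.1, 20.3 and 27.3 in secondary cells, against 19.8, 12.4 and 13.0 in primary cells (log2 difference 0.57, SE 0.16). Of 7 tested adipocyte markers 4 rose and 1 fell, a fall that was lost without secondary replicate 2 or 3 and without any 1 of the primary libraries, and the list summed to 42.4 to 51.7 in secondary cells and 26.2 to 33.6 in primary cells. Of 11 tested genes of the sex chromosomes, 3 rose and 3 fell (27.3% each), close to the shares of all genes tested. Both groups are labelled male, so this comparison cannot check the sex in the labels.

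The difference between follicle types was tested for a difference between males and females in June. It differed for 5381 genes (41.2% of those tested), and was more positive in males for 2724 (20.9%) and more negative for 2657 (20.4%). These 2 comparisons share no library. Sex rests on the labels alone. Whether the libraries of a group came from separate goats is not said, so sex cannot be told apart from animal or culture here. In June females 6435 genes were called between follicle types (49.3% of those tested), 3267 of them higher in secondary cells (25.0%) and 3168 lower (24.3%). Of the 4006 genes higher in secondary cells of June males, 1935 were also called higher in June females, which is 48.3% of the male and 59.2% of the female list, and 493 were called lower there. Of the 3773 lower genes, 1678 were called lower in June females (44.5% of the male and 53% of the female list) and 403 higher. Of the 15 genes with the largest rise in June males, 12 were called higher in June females and 2 lower, and the difference was more positive in males in all 15. These 15 include MMP12 and SST, which were tested because of the secondary cells of June males, so their part in the counts is a description. Of the 15 with the largest fall, 11 were called lower and 1 higher in females, and the difference was more negative in males in 13. These 30 genes were picked for their size in males, which by itself favours larger values there.

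SOX2 fell in both sexes. Its log2 difference was -3.44 in males and -3.43 in females, with a difference between them of -0.012 that was not called (SE 0.20, limma adjusted p 0.971). SCARA5 fell in both as well, at -2.82 and -2.56 (difference -0.26, SE 0.13, limma adjusted p 0.125). IL6 was 78.8 ± 5.10 in secondary and 5.65 ± 0.802 in primary cells of males, and 24.5 ± 1.93 in secondary and 32.4 ± 2.10 in primary cells of females (mean ± SD, n = 3 each), a difference of 3.98 between the sexes (SE 0.22, limma adjusted p 8.7e-13). Primary cells of males were thus the lowest of the 4 June groups for IL6 and secondary cells of males the highest. GPNMB had 94.0 ± 1.44 in secondary and 9.41 ± 0.941 in primary cells of males against 74.3 ± 1.15 in secondary and 53.7 ± 1.45 in primary cells of females, so that the low group was again the primary cells of males (difference 2.73, SE 0.10, limma adjusted p 1.6e-15).

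Several genes had opposite directions in the libraries labelled male and female. ABI3BP, a matrix protein of connective tissue, was 13.0 ± 0.509 in secondary and 0.847 ± 0.178 in primary cells of males, but 0.877 ± 0.19 in secondary and 15.1 ± 1.12 in primary cells of females, with log2 differences of 2.93 and -3.10 (difference 6.03, SE 0.12, limma adjusted p 3.3e-20). SBSPON crossed the other way, at 3.35 ± 0.425 in secondary and 76.6 ± 7.95 in primary cells of males against 17.2 ± 0.624 in secondary and 2.52 ± 0.424 in primary cells of females (difference -6.53, SE 0.15, limma adjusted p 1.6e-19). The protease-like PRSS35 (1.79 in males, -2.33 in females), the calcification inhibitor MGP (1.59 and -1.93) and the cAMP phosphodiesterase PDE4B (0.83 and -2.30) rose in males and fell in females. ANKRD1, a muscle stress protein (-1.39 and 1.85) and SPARCL1 (-1.33 and 1.42) fell in males and rose in females.

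Of the 4228 genes called both in June males and for the difference between the sexes, 896 were called in the opposite direction in females, 1344 in the same direction and 1988 were not called in females. For elastin the difference between sexes was -3.33 (SE 0.12, limma adjusted p 6.6e-16): means were 129 ± 5.95 in secondary and 1382 ± 146 in primary cells of males, against 211 ± 15.7 in secondary and 223 ± 17.8 in primary cells of females, and primary cells of males stood apart from the other 3 June groups. KRT5 was 0.0233 ± 0.0252 in secondary and 18.9 ± 2.65 in primary cells of males and 0.55 ± 0.114 in secondary and 1.78 ± 0.166 in primary cells of females, again with the primary cells of males apart among the June groups. NFKBIA, the inhibitor of NF-kappa B, was 15.8 ± 1.33 in secondary and 13.1 ± 0.608 in primary cells of males but 11.7 ± 0.949 in secondary and 105 ± 3.08 in primary cells of females, where the primary cells of females were the June group that stood apart. Between the sexes directly, 5150 genes were called in secondary cells (39.5%) and 5927 in primary cells (45.4%).

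Several gene groups differed between the sexes mostly in 1 direction, beside 20.9% of all genes tested more positive and 20.4% more negative in males. For immediate early genes the follicle difference was more positive in males for 29 of 33 and more negative for 1, and its median was -0.059 in males and -0.53 in females. FOS fell in both, by a little less in males (-1.59 in males, -1.80 in females, difference 0.21, limma adjusted p 0.0069), and FOSB (-1.43 and -3.07) fell further in females (difference 1.65, limma adjusted p 2.8e-13). Interferon genes were more positive in males for 21 of 34 and more negative for 1, and chemokines and cytokines for 20 of 33 and 2. Contractile genes went the other way, with 13 of 22 more negative in males and 2 more positive, and medians of -0.74 in males and -0.17 in females. Keratinocyte markers were more negative in males for 14 of 27 and more positive for 1. For mitotic genes 15 of 58 were more positive in males and 3 more negative, so that 31.0% were called for the difference, beside 41.2% of all genes tested.

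**Figure D5:**
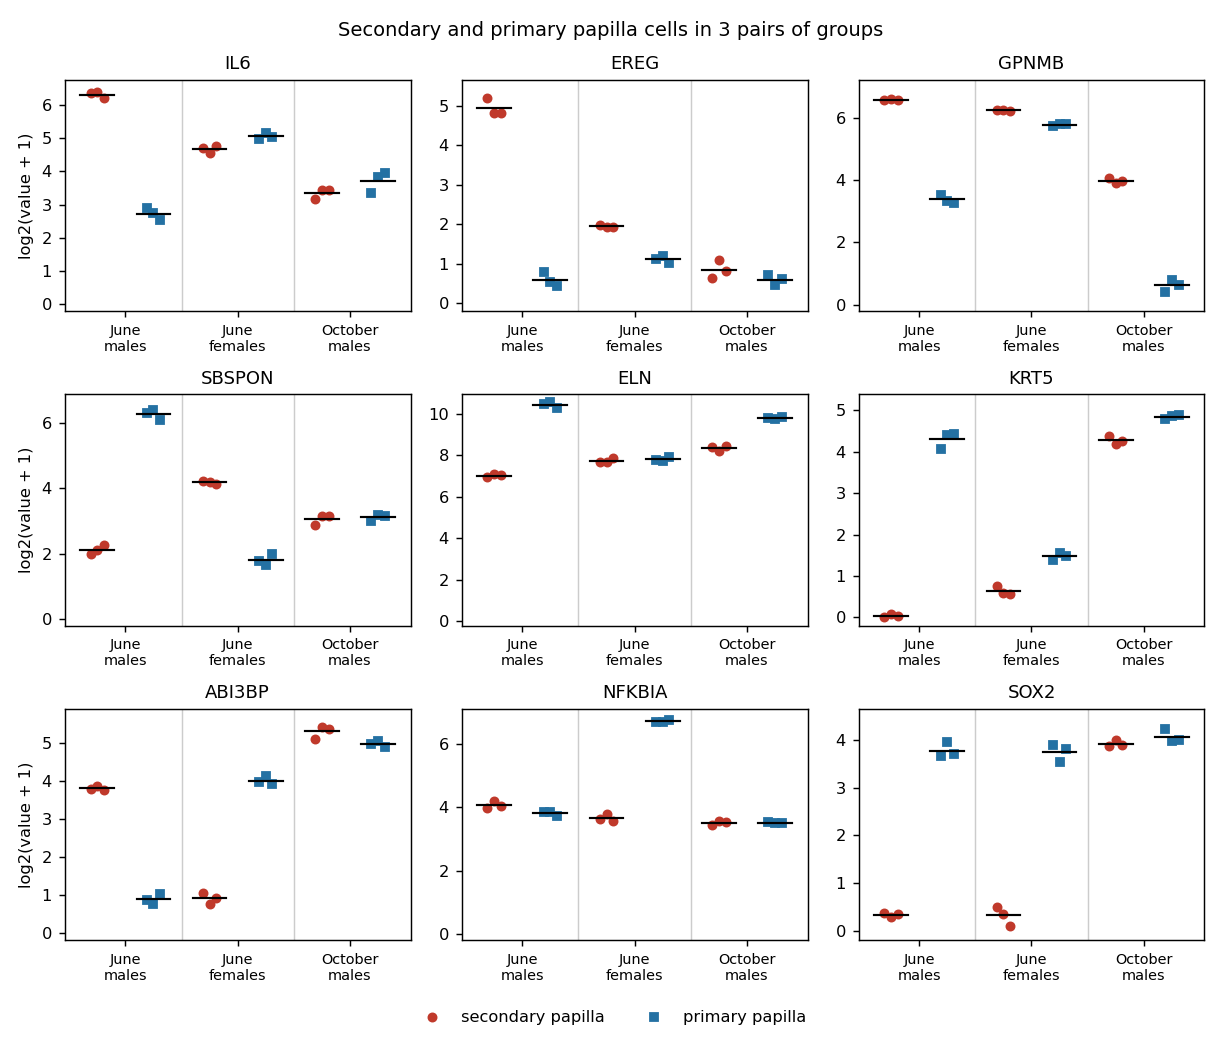
Values of 9 genes, as log2(value + 1), in secondary (circles) and primary (squares) papilla cells of June males, June females and October males, with each library as a point (n = 3 per group) and the group mean as a line. Among the June groups IL6 and GPNMB are lowest in primary cells of males, ABI3BP and SBSPON cross between the sexes, and SOX2 is low in secondary cells of both sexes in June but not of October males.

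The same difference was set against October males, whose comparison also shares no library with that of June males. Secondary and primary libraries of October males were closely alike, with r of 0.991 to 0.992. The range was 0.960 to 0.962 in June males and 0.978 to 0.982 in October females. Whether month or another trait of these libraries sets the October males apart was not tested. The follicle difference differed between June and October males for 5730 genes (43.9%), more positive in June for 2909 (22.3%) and more negative for 2821 (21.6%). In October males 2412 genes were called between follicle types (18.5% of those tested), 86 of them at least 2-fold. The secondary cells were higher for 1416 of the 2412 (10.9% of the genes tested) and lower for 996 (7.63%). Of the genes higher in June males 813 were also called higher in October males (20.3% of the June and 57.4% of the October list) and 187 lower. Of the genes lower in June males 550 were called lower (14.6% and 55.2%) and 296 higher. SOX2 was 14.2 ± 0.738 in secondary and 15.9 ± 1.73 in primary cells of October males, where it was not called. The June difference lay -3.29 from the October one in males (SE 0.20, limma adjusted p 6.5e-12). In October females, which were not tested here, SOX2 was 0.333 ± 0.351 in secondary and 12.4 ± 0.909 in primary cells. In October males HSPA6 was 2.12 ± 0.159 in secondary and 2.44 ± 0.283 in primary cells (difference 4.65, SE 0.15, limma adjusted p 9.2e-17). EREG was 0.82 ± 0.298 in secondary and 0.513 ± 0.132 in primary cells of October males (difference 4.10, SE 0.17, limma adjusted p 7.6e-15).

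MGP had opposite directions in June and October males, with log2 differences of 1.59 and -3.64. In October males it was 1.74 ± 0.473 in secondary and 33.1 ± 5.49 in primary cells (difference 5.24, SE 0.25, limma adjusted p 1.3e-13). Desmin and PCDH7 also had opposite directions, with -2.71 in June and 1.13 in October males for DES, and -2.90 and 1.02 for PCDH7. ALDH1A1 fell in both months, with log2 differences of -4.53 in June and -1.80 in October, and further in June (difference -2.74, SE 0.13, limma adjusted p 1.6e-13). GPNMB rose by 3.19 in June and 3.35 in October males, a difference of -0.15 that was not called (SE 0.10, limma adjusted p 0.243). Insulin-like growth factor genes had a median of -0.037 in October males, and 16 of the 19 were more negative in June.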

How the data were processed

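The study measured mRNA by RNA-seq in dermal papilla cells of cashmere goats. Per the labels' protocols, RNA was extracted with RNAiso Plus and paired-end libraries were prepared with NEBNext Ultra reagents. The submitters' processing notes name kallisto 0.46.1 and sleuth 0.30.0 without their roles; the genome build is not given in the sources used here. Signal, as deposited, is 1 normalised value for each of 20326 protein-coding genes per library, scaled to nearly equal totals. The factor the authors used for it is not stated. No counts are given, so the depth is unknown and no counting interval can be had. Groups came from the labels, with 3 libraries each.

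Values were taken as log2(value + 1). Genes had to reach 1 in 3 or more of the 24 libraries, and the 13049 that did entered limma 3.58.1 (R 4.3.3, statmod 1.5.0) with 8 group means and a robust trended spread, a test that was checked on simulated data. P-values were adjusted by Benjamini-Hochberg over all genes, and differences between sexes and months are interaction terms of the same fit. The text names the 15 largest rises and 15 largest falls with a mean of at least 5 in either group, up to 6 called members of each list, all papilla markers, and the largest differences between sexes and months; exceptions are marked where they occur. Some genes that this rule selects are not reported here, though counts and medians include them. The comparison, the members and the gene lists were chosen with earlier results of these data known. Gene IDs were matched to RefSeq symbols (20294 of 20326). Alternatives changed the pseudocount, filter, spread, scaling, libraries and replicate block. October females entered the filter, the spread and the check of SRY, and no tested comparison. Their means are printed for SOX2 alone.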

Additional observations from a re-analysis of the deposited data

Results flagged for a closer look

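Genes are listed here because the difference between secondary and primary cells differed between June males and another group of goats by an interaction test in limma. They were picked among the largest such differences in each direction for sex and for month, and picking the largest favours extreme values. Each value below is the June male log2 difference minus that of the other group.

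Against June females, the more positive differences in males were 6.03 for ABI3BP, 4.12 for PRSS35, 3.98 for IL6, 3.86 for COLEC12 and 3.60 for SST. The other 5 were 3.53 for MGP, 3.52 for EREG, 3.37 for MMP12, 3.32 for NFKBIA and 3.13 for PDE4B. EREG was called higher in secondary cells of both sexes. MMP12 and SST were tested because of the secondary cells of June males, where they were high, and are listed as values only. The more negative differences in males were -6.53 for SBSPON, -3.43 for KRT5, -3.33 for ELN and -3.24 for ANKRD1. They were -3.02 for KRT14, -2.81 for KRT6A, -2.81 for PTHLH and -2.76 for SPARCL1. ELN, KRT14 and PTHLH (parathyroid hormone-like hormone) were not called in June females. Leaving out MMP12 and SST, the highest limma adjusted p of these differences between the sexes was 1.7e-08, the value of PTHLH.

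Against October males, the more positive differences in June were 5.24 for MGP, 4.65 for HSPA6, 4.10 for EREG, 3.97 for SCT and 3.95 for IL6. They were 3.93 for MMP12, 3.80 for MMP3, 3.65 for SST, 3.22 for CMKLR1 and 3.10 for THBD. MMP3 and CMKLR1 were called higher in secondary cells in both months, by 0.44 and 0.38 on the log2 scale in October. The more negative differences in June were -4.11 for SBSPON, -3.92 for PCDH7, -3.84 for DES, -3.70 for KRT5 and -3.46 for IGF2. They were -3.38 for UCHL1, -3.29 for SOX2, -3.28 for KCTD12, -2.94 for DGKB and -2.88 for EFHD1. Of these, KRT5 and IGF2 were called lower in October as well, and PCDH7, DES, DGKB and EFHD1 were called higher there. Leaving out MMP12 and SST, as above, the highest limma adjusted p was 3.3e-07, the value of SCT. The causes of these differences were not tested.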

How the results depend on the processing

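In all settings run, the follicle types of June males differed in 7103 to 8603 called genes, and between 899 and 1393 of them differed at least 2-fold, the last with a pseudocount of 0.1. Leaving out 1 library at a time gave 7103 to 7425 calls. Of 260 named results in June males, 11 changed their side of the threshold in some setting and 0 of those called changed sign, while 5 that were not called did (PTCH1, VCAN, EIF2S3, TXLNG and ZFX); the 40 differences between groups kept both. With a value of 1 asked in 6 libraries, 8 of the 260 and 4 of the 40 could not be fitted, since those genes were not tested. Same-numbered secondary and primary libraries correlated in their deviations from the group means with r of 0.043, 0.043 and -0.045. Such values cannot show whether same-numbered libraries came from the same goat, which the labels do not say. With the replicate block, 7911 genes were called in the fit of 24 libraries and 7891 in that of the 6 libraries.

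With a common total per library, members called lower were 2 for Notch and Hedgehog, 1 for interferon, 4 for the respiratory chain, 11 for ribosomal proteins, 3 for HOX genes, 1 for pericyte markers, 0 for adipocyte markers and 1 for sex chromosome genes, and ribosomal proteins called higher were 15. Adipocyte markers called lower were also 0 with no filter on low values and with the replicate block in 24 libraries. Without 1 library at a time, members called lower ranged from 2 to 4 for Notch and Hedgehog, 2 to 4 for interferon, 16 to 30 for ribosomal proteins and 0 to 1 for adipocyte markers. The cause was not tested, except that the common total by construction raises secondary values relative to primary ones. Because read depth is unknown, calls at low values carry an error that these files cannot show.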
